A study of Mus musculus with 4 samples.

Results

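The lipid droplet and lipase genes are 10 genes chosen by name: Plin1, Plin2, Plin4, Plin5, Cidec, Lpl, Lipe, Pnpla2, Cd36 and Fabp4. Each was found by its Ensembl identifier among the 47729 genes listed in the files, and all 10 were among the 18783 genes that passed the filter on low counts. They were measured by RNA sequencing of polyadenylated RNA from mouse lung, in 2 libraries of Sugen-Hypoxic mice and 2 libraries of Normoxic mice. Sugen is an inhibitor of VEGF receptors that is given together with low oxygen to rodents as a model of pulmonary hypertension, and Normoxic animals breathed normal air. All animals were of strain BL/6 and of the genotype Control (Rosa). Each library was a pool. Sugen-Hypoxic replicates 1 and 2 held 2 males each, whereas Normoxic replicate 1 held 3 females and Normoxic replicate 2 held 1 female and 2 males, so that 4 treated and 6 untreated mice were compared. Neither treatment was given alone, and the labels state no dose, duration or age. Treatment and the sex of the pools cannot be told apart.

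Fat is stored in cells as triglyceride inside lipid droplets. Perilipins coat the droplets, lipases on and around them release fatty acids, and lipoprotein lipase on the capillary wall together with the transporter CD36 brings fatty acids into cells. In the lung these genes are known from capillary endothelium, alveolar macrophages, lipid-storing fibroblasts and alveolar type 2 cells, which make surfactant lipid, while Plin1, Cidec and Fabp4 are best known from adipocytes.

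Levels are given as CPM, read counts divided by the library's total and brought to a common scale between libraries by TMM factors. Gene counts summed to 57.3 and 65.3 M reads in the Sugen-Hypoxic libraries and to 67.1 and 58.2 M reads in the Normoxic libraries. Differences are log2 fold changes, Sugen-Hypoxic over Normoxic, with standard errors (SE) and Benjamini-Hochberg adjusted p-values from edgeR's quasi-likelihood test over all 18783 genes, called at 0.05. The labels do not say how the pools were raised or processed apart from each other, so these p-values measure only the spread between these pools. This spread may be technical, and between the Normoxic pools it also takes in their difference in sex. In whole lung, fewer cells of a type and less RNA per cell cannot be told apart. The source label names lung while the extraction text names kidneys. The type 2 cell marker Sftpc stood at 12416 and 11403 CPM in Sugen-Hypoxic libraries and 11564 and 11254 CPM in Normoxic libraries. The 8 kidney markers summed to 0.379 and 0.342 CPM in Sugen-Hypoxic libraries and 0.995 and 0.801 CPM in Normoxic libraries, with 5 of the 8 (Umod, Slc12a1, Nphs1, Slc34a1 and Kap) at 0 in at least 1 library. Xist, expressed from the inactive X chromosome, was at 0.505 and 0.512 CPM in the Sugen-Hypoxic pools, and at 495 and 149 CPM in the Normoxic pools. Ddx3y, on the Y chromosome, was at 111 and 104 CPM in the Sugen-Hypoxic pools, and at 0.19 and 57.1 CPM in the Normoxic pools, so both genes followed the labelled sexes.

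Plin2, the perilipin found on droplets of most cell types, rose in Sugen-Hypoxic lungs, and Cd36, the fatty acid transporter, fell. The other 8 genes did not pass the threshold. Thus 1 member was called higher and 1 lower, 20.0% of the 10, against 11.5% of all 18783 genes, of which 5.51% were called higher and 6.01% lower. Higher calls made up 47.9% of all calls with TMM factors and 32.6% with library size as the only scaling. In 6 of the 10 members the 2 groups did not overlap, 2 of them higher and 4 lower in Sugen-Hypoxic libraries, against 61.7% of all genes (30.0% higher and 31.7% lower). These shares are not far from those of all genes, and with 10 members they are not a result about the list. The median log2 fold change was -0.04 over the 10 members and -0.004 over all genes, and the median absolute log2 fold change was 0.32 over the members and 0.21 over all genes.

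**Figure D1:**
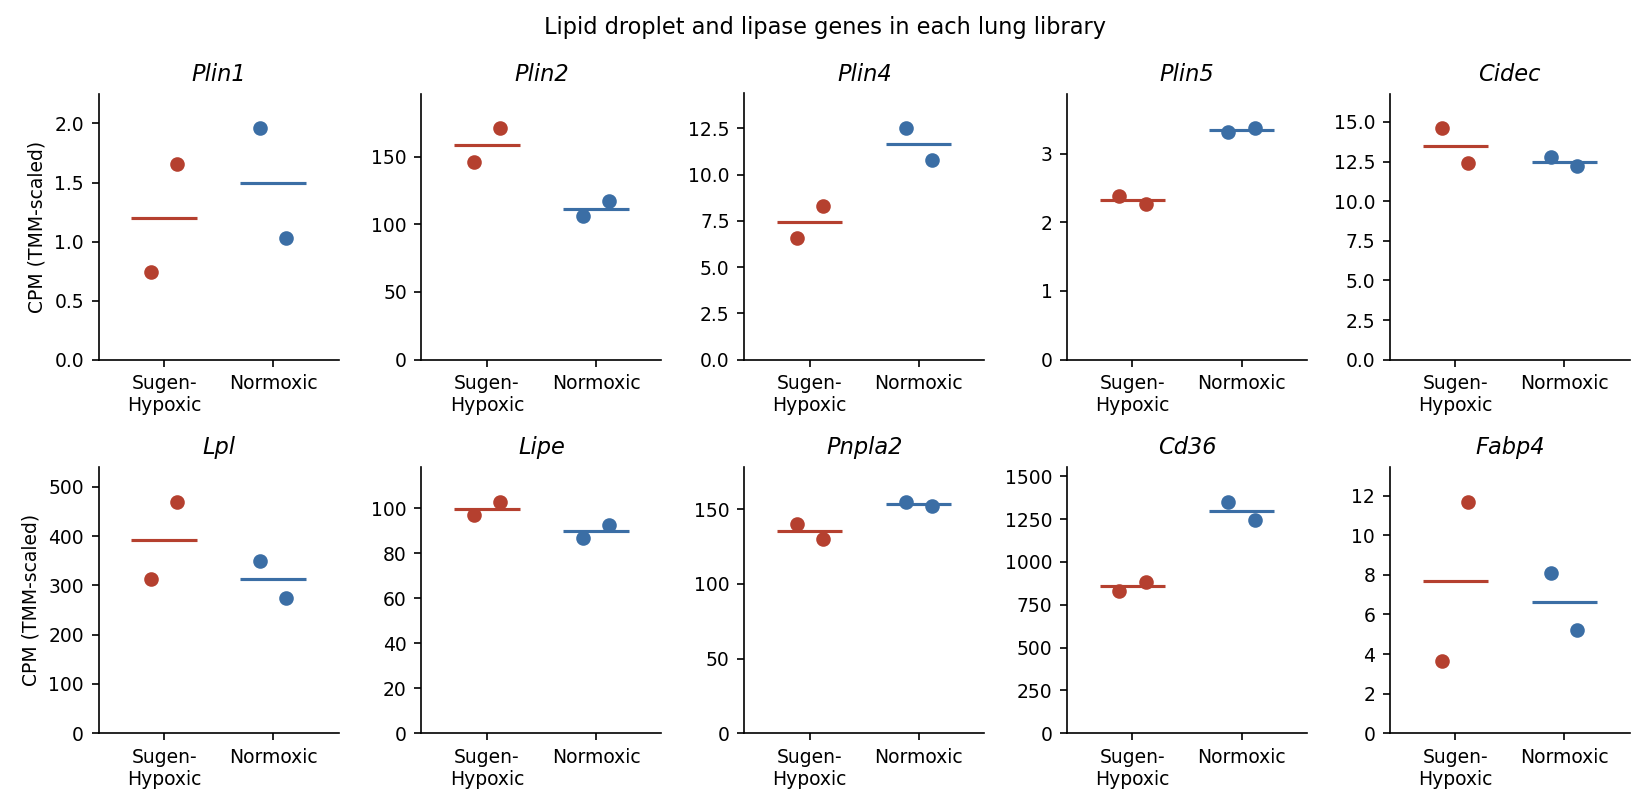
TMM-scaled CPM (vertical axes, each from 0) of the 10 genes, with 1 point per library, Sugen-Hypoxic in red and Normoxic in blue, and a line at each group mean. Plin2 (146 and 171 CPM against 106 and 117 CPM) and Cd36 (833 and 882 CPM against 1352 and 1243 CPM) separate by group, whereas the points of Plin1, Cidec, Lpl and Fabp4 overlap.

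The coat proteins differed from one another in direction and in spread. Plin2 (ENSMUSG00000028494, chr4:86648386-86670060, minus strand, GRCm38) had 146 and 171 CPM in Sugen-Hypoxic libraries and 106 and 117 CPM in Normoxic libraries. Both Sugen-Hypoxic values lay above both Normoxic values, and the all-female Normoxic pool was the lowest of the 4. Its mean was 158 ± 17.5 CPM in Sugen-Hypoxic and 112 ± 7.27 CPM in Normoxic libraries (SD, n = 2 each), a log2 fold change of 0.51 ± 0.09 (SE), or 1.42-fold higher, with an adjusted p of 0.0292 in edgeR's quasi-likelihood test. Of the 50-base stretches of its longest coding transcript, 4.89% also occur in the annotated gene Gm12551, and reads that map to both places were not counted. With Normoxic replicate 1 left out the log2 fold change was 0.45 with an adjusted p of 0.233, and with Normoxic replicate 2 left out it was 0.57 with an adjusted p of 0.155.

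The promoters of the 2 called genes are shown because they are the members past the threshold. The 300-base RefSeq windows (build GRCm38.p6, 250 bases before to 50 bases after the start) lie at chr4:86670010-86670309 for Plin2 and chr5:17835847-17836146 for Cd36, both read 5′ to 3′ on the minus strand. Capitals mark matches on either strand to AGGTCA, the core bound by PPAR and other nuclear receptors, and to ACGTG and GCGTG, the cores bound by hypoxia-inducible factors and, for GCGTG, by the aryl hydrocarbon receptor. A match on the opposite strand appears as its reverse complement.
Plin2: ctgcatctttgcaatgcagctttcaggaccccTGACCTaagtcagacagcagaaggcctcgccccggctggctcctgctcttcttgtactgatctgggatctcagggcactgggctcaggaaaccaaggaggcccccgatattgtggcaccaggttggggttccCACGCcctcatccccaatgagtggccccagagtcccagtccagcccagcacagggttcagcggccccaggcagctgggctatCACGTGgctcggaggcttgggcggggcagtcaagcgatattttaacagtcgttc
Cd36: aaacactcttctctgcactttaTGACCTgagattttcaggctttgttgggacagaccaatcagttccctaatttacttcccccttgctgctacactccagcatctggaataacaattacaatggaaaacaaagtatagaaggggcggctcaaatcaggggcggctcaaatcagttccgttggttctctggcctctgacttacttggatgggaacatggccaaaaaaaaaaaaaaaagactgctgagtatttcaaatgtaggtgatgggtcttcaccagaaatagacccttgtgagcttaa
The Plin2 window held AGGTCA on the opposite strand 218 bases before the start, GCGTG on the opposite strand 86 bases before it, and ACGTG on both strands, overlapping each other, 4 and 3 bases before it. The Cd36 window held AGGTCA on the opposite strand 228 bases before the start and no ACGTG or GCGTG. Among 32851 promoter windows of the same length, 16.3% held AGGTCA, 19.6% ACGTG and 32.4% GCGTG, so each match is common. The exact direct repeat AGGTCANAGGTCA, a consensus form of the PPAR element, was in 0.04% of windows. It was in none of the 11 windows matched for 8 of the 10 members. Repeats that differ from these letters were not searched for. These letters were only searched for, and binding was not measured.

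Plin4 and Plin5 are neighbours on chromosome 17, on the same strand and 1797 bases apart. Plin4 (ENSMUSG00000002831, chr17:56100591-56109803, minus strand), which coats small new droplets in adipocytes, had 6.55 and 8.31 CPM in Sugen-Hypoxic libraries and 12.5 and 10.8 CPM in Normoxic libraries. Plin5 (ENSMUSG00000011305, chr17:56111601-56117596, minus strand), the perilipin of oxidative tissues such as heart, had 2.38 and 2.27 CPM in Sugen-Hypoxic libraries and 3.31 and 3.37 CPM in Normoxic libraries. Neither gene overlapped between groups, and both were lower in Sugen-Hypoxic libraries, but neither passed the threshold. The log2 fold change of Plin4 was -0.65 ± 0.16 (SE), with an adjusted p of 0.0551, and that of Plin5 was -0.52 ± 0.19 (SE), with an adjusted p of 0.136. Plin4 lay just outside the threshold and inside it under several alternatives, with an adjusted p of 0.00848 in DESeq2 and 0.0435 with library size as the only scaling, but 0.322 without Normoxic replicate 1, 0.207 without Normoxic replicate 2 and 0.695 with the male fraction as a covariate. The next coding gene beyond Plin5, Lrg1, did not share their direction, at 136 and 233 CPM in Sugen-Hypoxic and 117 and 105 CPM in Normoxic libraries (adjusted p = 0.109).

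Markers of heart muscle, in which Plin5 is well known, were lower in the same libraries. The 10 cardiac markers summed to 268 and 450.5 CPM in Sugen-Hypoxic and 670 and 628 CPM in Normoxic libraries. In 10 of 10 the Sugen-Hypoxic values were lower with no overlap, against 31.7% of all genes. All 10 were higher in Sugen-Hypoxic replicate 2 than in replicate 1. Plin4 shared this order (6.55 and 8.31 CPM) and Plin5 did not (2.38 and 2.27 CPM). Among the markers 1, the atrial myosin light chain Myl7, was called lower, against 6.01% of all genes, at -1.05 ± 0.19 (SE, adjusted p = 0.0256). The most abundant, the heavy chain Myh6, had 98.5 and 177 CPM in Sugen-Hypoxic and 320 and 282 CPM in Normoxic libraries (adjusted p = 0.0519), and none of the 10 was at 0. Actc1, cardiac actin, had 59.2 and 90.6 CPM in Sugen-Hypoxic and 108 and 117 CPM in Normoxic libraries. The part of heart muscle RNA in the Plin4 and Plin5 values was not tested.

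Plin1 (ENSMUSG00000030546, chr7:79720218-79732903, minus strand), which coats the large droplet of adipocytes and gates lipolysis there, was the lowest of the 10 genes. It had 0.74 and 1.66 CPM in Sugen-Hypoxic libraries and 1.96 and 1.03 CPM in Normoxic libraries, and the groups overlapped. These values rest on 41 and 107 reads in Sugen-Hypoxic libraries and 134 and 62 reads in Normoxic libraries. The exact Poisson 95% intervals, which cover counting error only, were 0.531 to 1.0 and 1.36 to 2.01 CPM in Sugen-Hypoxic libraries, and 1.64 to 2.32 and 0.793 to 1.33 CPM in Normoxic libraries. Within each group the 2 intervals did not meet, so the replicates differed by more than counting error, and the log2 fold change of -0.32 ± 0.50 (SE) had an adjusted p of 0.718. Cidec (ENSMUSG00000030278, chr6:113424634-113435760, minus strand), which fuses droplets into larger ones, was at 14.6 and 12.4 CPM in Sugen-Hypoxic libraries and 12.8 and 12.2 CPM in Normoxic libraries. Its groups overlapped at nearly equal levels (log2 fold change 0.11 ± 0.11, SE, adjusted p = 0.546), unlike the spread of Plin1.

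Per length of exon union (RPKM, counts scaled by library size and by length in kilobases), Plin2 made up most of the perilipin RNA. Its share of the summed per-length level of all 5 perilipins was 64.2 and 68.0% in Sugen-Hypoxic libraries and 53.8 and 56.3% in Normoxic libraries. Plin3, a perilipin of many tissues that is not among the 10 genes, had 32.0 and 28.0% in Sugen-Hypoxic and 38.8 and 37.4% in Normoxic libraries. Plin4 had 1.75 and 2.01% in Sugen-Hypoxic libraries and 3.83 and 3.17% in Normoxic libraries. Plin5 had 1.76 and 1.52% in Sugen-Hypoxic libraries and 2.81 and 2.74% in Normoxic libraries. For these 4 the groups did not overlap, Plin2 with the higher share in Sugen-Hypoxic libraries and the others with the lower one. Shares of 1 total are bound to each other, so a higher Plin2 share lowers the rest. Plin1 held 0.246 and 0.499% in Sugen-Hypoxic and 0.749 and 0.377% in Normoxic libraries. The level of Plin3 itself was 78.4 and 75.9 CPM in Sugen-Hypoxic and 82.7 and 83.5 CPM in Normoxic libraries and did not pass the threshold (log2 fold change -0.11 ± 0.05, SE, adjusted p = 0.245).

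**Figure D2:**
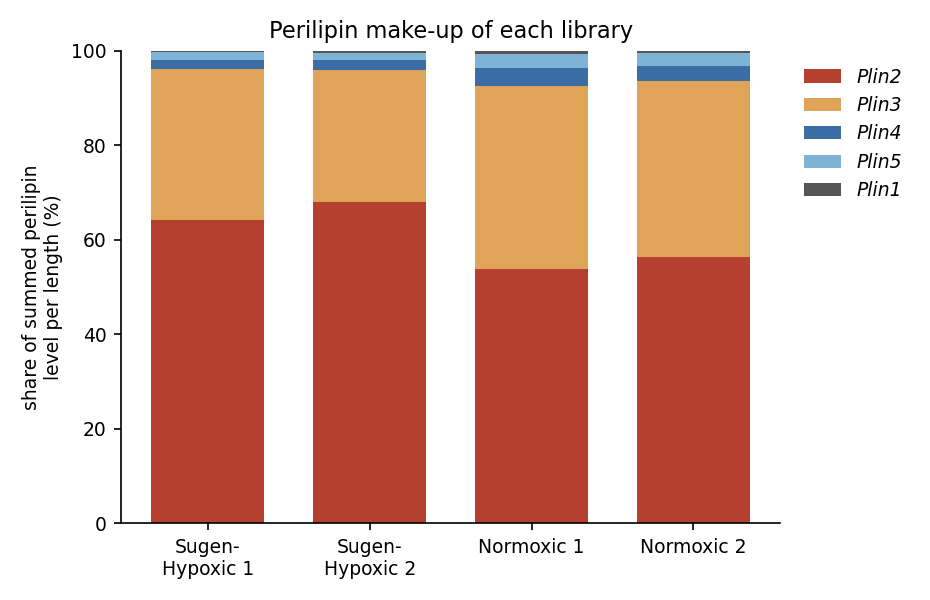
Share of each perilipin (vertical axis, percent of the summed level per length of exon union) in each of the 4 libraries, as stacked bars. Plin2 reaches 64.2 and 68.0% in the Sugen-Hypoxic libraries, against 53.8 and 56.3% in the Normoxic libraries, and Plin1 is a thin layer at the top of every bar.

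Among the lipases no member passed the threshold. Lpl (ENSMUSG00000015568, chr8:68880491-68907448, plus strand), which hydrolyses lipoprotein triglyceride on the capillary wall, had 313 and 469.6 CPM in Sugen-Hypoxic libraries and 349 and 275 CPM in Normoxic libraries. Sugen-Hypoxic replicate 2 was the highest, replicate 1 lay within the Normoxic range, and the log2 fold change was 0.32 ± 0.21 (SE, adjusted p = 0.356). With Sugen-Hypoxic replicate 1 left out it was 0.59 with an adjusted p of 0.000245, and with replicate 2 left out it was 0.00, so 1 library decides this value. Lipe (ENSMUSG00000003123, chr7:25379527-25398710, minus strand), the hormone-sensitive lipase that cleaves diglyceride, had 96.9 and 103 CPM in Sugen-Hypoxic libraries and 86.8 and 92.7 CPM in Normoxic libraries. Pnpla2 (ENSMUSG00000025509, chr7:141455198-141460743, plus strand), the lipase that takes the first fatty acid from triglyceride, had 140.2 and 130.0 CPM in Sugen-Hypoxic libraries and 155 and 152 CPM in Normoxic libraries. Both had groups that did not overlap, Lipe with higher and Pnpla2 with lower values in Sugen-Hypoxic libraries, by small amounts. The log2 fold change of Lipe was 0.15 ± 0.06 (SE, adjusted p = 0.175). That of Pnpla2 was -0.18 ± 0.06 (SE, adjusted p = 0.118), and with library size as the only scaling it was -0.25 with an adjusted p of 0.0445. Lipe overlaps the antisense gene 4732471J01Rik over 19184 bases, and its count without regard to strand was 0.666 to 0.694 of the stranded count.

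Cd36 (ENSMUSG00000002944, chr5:17781690-17888801, minus strand), which carries fatty acids across the plasma membrane, was the most abundant of the 10 genes. It had 833 and 882 CPM in Sugen-Hypoxic libraries and 1352 and 1243 CPM in Normoxic libraries. The groups lay far apart relative to their spread, with the all-female Normoxic pool the highest. The mean was 857 ± 34.6 CPM in Sugen-Hypoxic and 1298 ± 77.1 CPM in Normoxic libraries (SD, n = 2 each), a log2 fold change of -0.60 ± 0.09 (SE), or 1.51-fold lower, with an adjusted p of 0.0156 in edgeR's quasi-likelihood test. Without Normoxic replicate 1 it was -0.53 with an adjusted p of 0.211, and without Normoxic replicate 2 it was -0.66 with an adjusted p of 0.144. The next coding gene on its left, Sema3c, on the opposite strand and 51421 bases away, had 1104 and 923 CPM in Sugen-Hypoxic and 503 and 602 CPM in Normoxic libraries and rose (log2 fold change 0.88 ± 0.13, SE, adjusted p = 0.0173). Both called members kept their direction and lost the call when the male fraction of each pool was added as a covariate, with a log2 fold change of 0.38 for Plin2 (adjusted p = 0.625) and -0.48 for Cd36 (adjusted p = 0.611). In 5 of the 10 members (Plin2, Plin4, Lipe, Pnpla2 and Cd36) the mixed-sex Normoxic pool lay between the all-female pool and the mean of the all-male Sugen-Hypoxic pools, against 41.4% of all 18783 genes.

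Fabp4 (ENSMUSG00000062515, chr3:10204088-10208576, minus strand), which binds fatty acids in adipocytes, macrophages and endothelium, varied most among the Sugen-Hypoxic replicates. It had 3.65 and 11.7 CPM in Sugen-Hypoxic libraries and 8.08 and 5.21 CPM in Normoxic libraries. Sugen-Hypoxic replicates 1 and 2 were the lowest and the highest of all 4, a 3.2-fold range within the group, against 1.55-fold within Normoxic libraries. Among the Normoxic replicates Plin1 had the wider range, 1.9-fold. The log2 fold change was 0.21 ± 0.53 (SE, adjusted p = 0.831). It was 0.81 with an adjusted p of 0.00613 without Sugen-Hypoxic replicate 1 and -0.87 with an adjusted p of 0.013 without Sugen-Hypoxic replicate 2, so its sign rests on which of these pools is used.

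**Figure D3:**
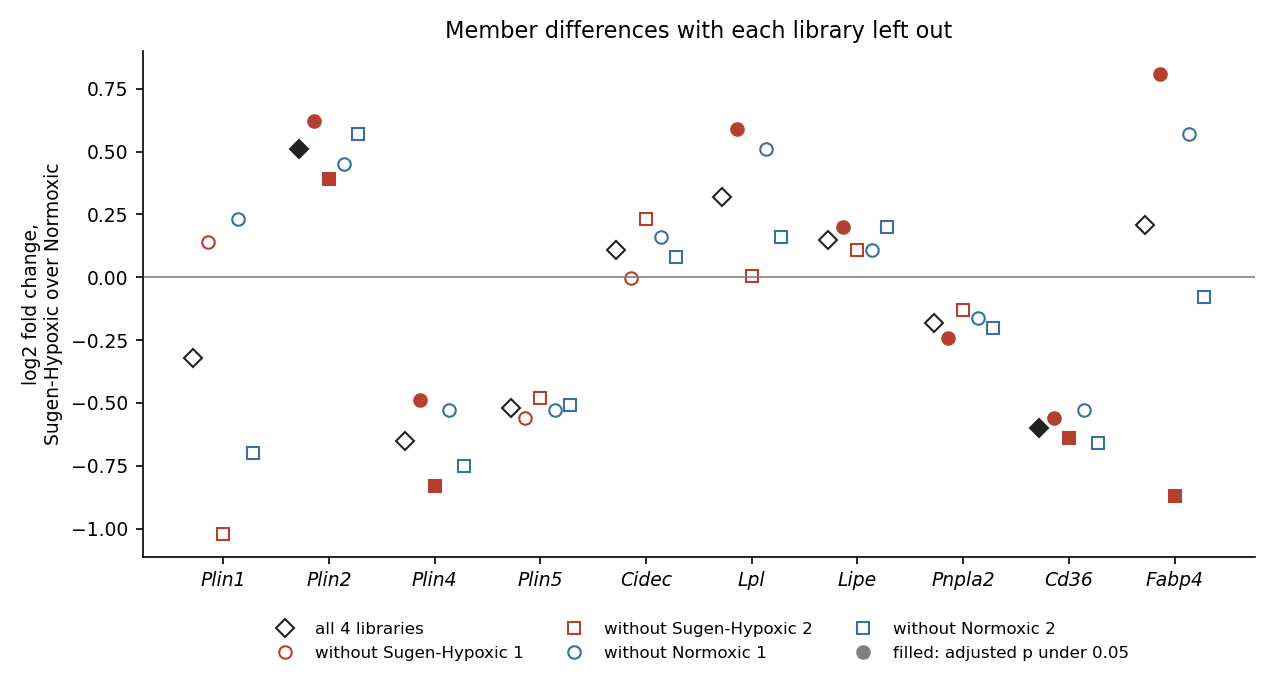
Log2 fold change of each of the 10 genes, Sugen-Hypoxic over Normoxic (vertical axis), with all 4 libraries and with each library left out in turn; filled symbols have an adjusted p under 0.05 in edgeR's quasi-likelihood test. Fabp4 lies at 0.81 without Sugen-Hypoxic replicate 1 and at -0.87 without Sugen-Hypoxic replicate 2, Plin2 and Cd36 keep their direction throughout, and no symbol is filled where a Normoxic library was left out.

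Ordered by mean RPKM over the exon union, the Sugen-Hypoxic libraries had Cd36 at 239, Plin2 at 45.1, Pnpla2 at 44.7, Lpl at 37.3, Lipe at 17.0, Cidec at 7.28, Fabp4 at 1.71, Plin4 at 1.29, Plin5 at 1.11 and Plin1 at 0.258. In Normoxic libraries the order was Cd36 at 361, Pnpla2 at 50.8, Plin2 at 31.8, Lpl at 29.8, Lipe at 15.3, Cidec at 6.73, Plin4 at 2.01, Plin5 at 1.6, Fabp4 at 1.48 and Plin1 at 0.322. Cd36 led in both groups and Plin1 came last. Plin2, Pnpla2 and Lpl overlapped in Sugen-Hypoxic libraries, where their ranges were 41.6 to 48.7, 43.1 to 46.4 and 29.8 to 44.8 RPKM. In Normoxic libraries Plin2 (30.3 to 33.2 RPKM) and Lpl (26.3 to 33.4 RPKM) overlapped, and Pnpla2 (50.4 to 51.3 RPKM) lay above both. The order depends on the length used: by the longest coding transcript, an alternative chosen after seeing the data, Lpl came second after Cd36 at 95.1 RPKM in Sugen-Hypoxic and 75.9 RPKM in Normoxic libraries, and Fabp4 stood at 8.55 RPKM in Sugen-Hypoxic and 7.41 RPKM in Normoxic libraries.

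The rest of the pathway was followed in 7 lists of 118 genes, of which 110 were tested. Of these, 4 were called higher and 9 lower, 11.8% against 11.5% of all genes, and their median log2 fold change was 0.05. Of all genes, 5.51% were called higher and 6.01% lower. With 13 to 18 tested genes in a list, the counts of single lists are not a result about the lists. Among 16 tested genes of droplet coat and biogenesis, 1 was called: Hilpda, the hypoxia-inducible droplet protein and inhibitor of Pnpla2, had 14.9 and 10.4 CPM in Sugen-Hypoxic libraries and 51.8 and 50.2 CPM in Normoxic libraries, and fell by 2.01 on the log2 scale (SE 0.17, adjusted p = 0.00529). Hilpda was 4.03-fold lower, and the ratio of Plin2 to Hilpda CPM was 9.79 and 16.4 in Sugen-Hypoxic libraries and 2.05 and 2.32 in Normoxic libraries. Among 18 lipolysis enzymes and cofactors, 1 was called: Adrb3, the beta-3 adrenergic receptor that triggers lipolysis in fat cells, had 5.68 and 5.01 CPM in Sugen-Hypoxic and 10.5 and 9.49 CPM in Normoxic libraries (-0.91 ± 0.14, SE, adjusted p = 0.0176). Unlike Hilpda, the other regulators of Pnpla2 named here did not pass: its activator Abhd5 was at 0.26 ± 0.06 (adjusted p = 0.0519) and its inhibitor G0s2 at -0.13 ± 0.23 (adjusted p = 0.748). Mgll, which cleaves monoglyceride, was at 0.36 ± 0.10 (adjusted p = 0.0763).

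Around lipoprotein lipase, 2 of 14 tested genes were called higher and 2 lower, against 5.51 and 6.01% of all genes. Gpihbp1, which holds Lpl on the capillary wall, had 80.5 and 72.6 CPM in Sugen-Hypoxic libraries and 114 and 105 CPM in Normoxic libraries and fell (-0.51 ± 0.08, SE, adjusted p = 0.0173). Vldlr, a lipoprotein receptor, had 156 and 118 CPM in Sugen-Hypoxic libraries and 93.1 and 86.8 CPM in Normoxic libraries and rose (0.60 ± 0.13, SE, adjusted p = 0.0453). Pcsk6, a protease of the proprotein convertase family that cleaves Lpl, rose (0.46 ± 0.10, SE, adjusted p = 0.0457), and the receptor Lrp1 fell to 800.4 and 816 CPM in Sugen-Hypoxic libraries, against 1081 and 1065 CPM in Normoxic libraries (adjusted p = 0.0257). Angptl4, an inhibitor of Lpl, was at 0.33 ± 0.09 (adjusted p = 0.079). The ratio of Cd36 to Gpihbp1 CPM was 10.3 and 12.1 in Sugen-Hypoxic libraries and 11.9 and 11.9 in Normoxic libraries, an overlap, whereas the ratio of Lpl to Gpihbp1 was 3.88 and 6.47 in Sugen-Hypoxic libraries and 3.08 and 2.62 in Normoxic libraries.

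Of 16 tested genes of fatty acid uptake, binding and activation, 3 fell and 0 rose: the acyl-CoA synthetase Acsl1 (-0.42 ± 0.07, SE, adjusted p = 0.0191), the transport protein Slc27a1 (-0.42 ± 0.07, SE, adjusted p = 0.0258) and the thioesterase Acot1 (-0.70 ± 0.15, SE, adjusted p = 0.0387). The median of that list was -0.26, the lowest of the 7. Its member Fabp5, a fatty acid binding protein of epithelium and macrophages, had 39.6 and 66.8 CPM in Sugen-Hypoxic and 67.9 and 56.5 CPM in Normoxic libraries (adjusted p = 0.583). Of 13 triglyceride synthesis genes, 2 fell: Dgat2, which adds the last fatty acid to triglyceride, at 11.1 and 9.95 CPM in Sugen-Hypoxic and 17.9 and 19.7 CPM in Normoxic libraries (-0.84 ± 0.10, SE, adjusted p = 0.0109), and the phosphatidate phosphatase Lpin3 (-0.46 ± 0.10, SE, adjusted p = 0.0469). Of 15 PPAR and adipogenic transcription factors, 2 rose: the nuclear receptor Ppard (0.52 ± 0.07, SE, adjusted p = 0.0139) and Cebpb (0.38 ± 0.08, SE, adjusted p = 0.0414). Pparg, the receptor that drives adipocyte genes, was at 0.13 ± 0.09 (adjusted p = 0.362), and 0 of 18 mitochondrial fatty acid oxidation genes were called. All 13 called pathway genes kept their sign with either Normoxic library left out, but 0 stayed past the threshold without Normoxic replicate 1, 1 (Hilpda, adjusted p = 0.0482) without Normoxic replicate 2 and 0 with the male fraction as a covariate.

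**Figure D4:**
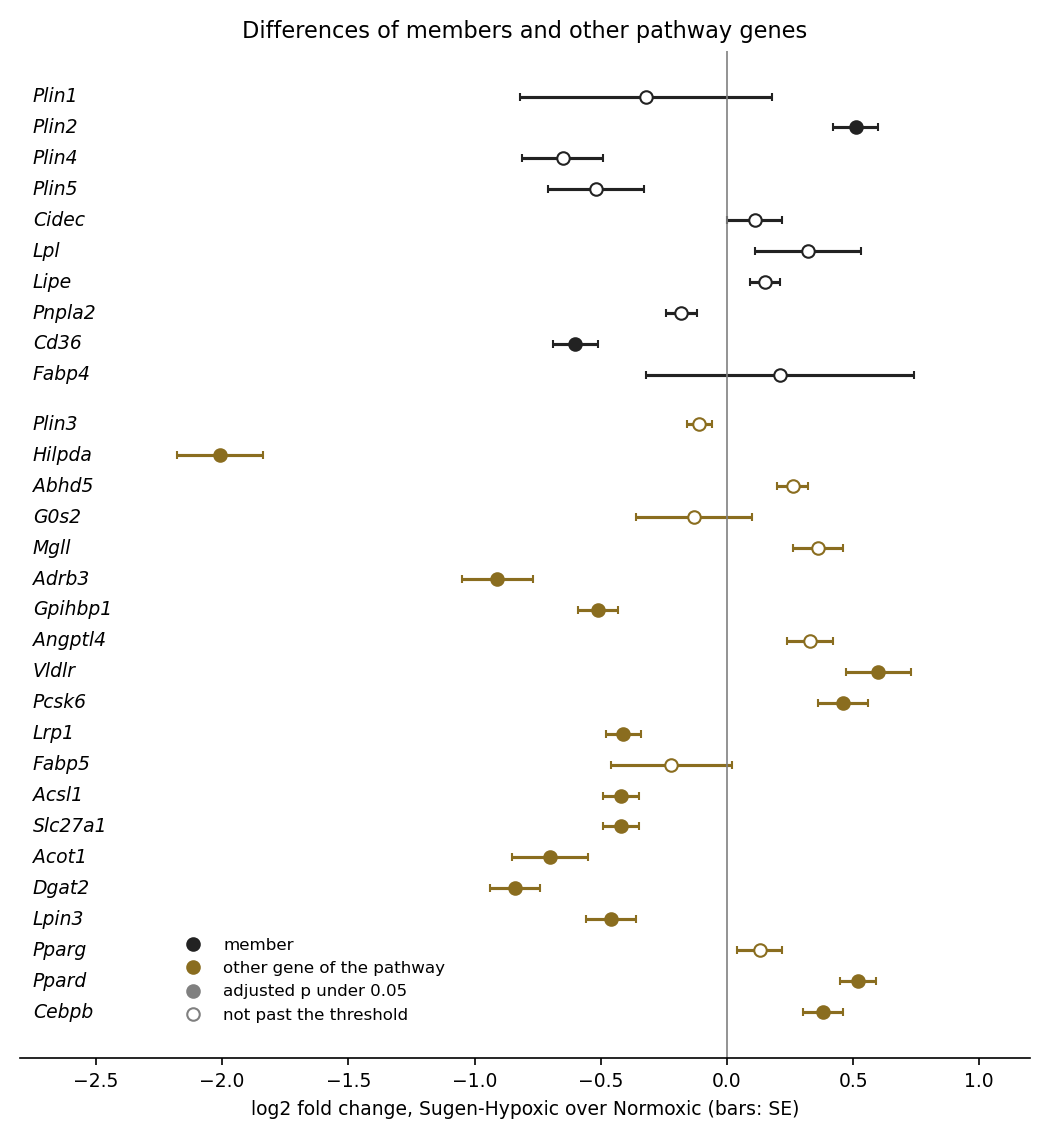
Log2 fold change, Sugen-Hypoxic over Normoxic (horizontal axis, bars are SE), of the 10 genes in black and of other pathway genes in brown; filled points have an adjusted p under 0.05. The brown genes are the 13 called of 110 tested pathway genes and some named whatever their value, so filled points are more frequent here than in the lists. Hilpda lies farthest left at -2.01, and the bars of Plin1 and Fabp4 are the widest among the 10 genes.

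Cell type markers were set beside several of these genes. Plin1 and Fabp4 were lower in Sugen-Hypoxic replicate 1 than in replicate 2. Of 11 tested adipocyte markers, 7 had that order, 3 (Adig, Thrsp and Adrb3) had the opposite one, and Slc36a2 was equal in both as printed. The order was not limited to this list. It held in 10 of 10 cardiac and 9 of 11 alveolar macrophage markers. In type 2 cell markers it held in 3 of 8, in endothelial markers in 1 of 12 and in fibroblast markers in 0 of 8. Its share over all genes was not counted. Adipoq and Cfd, given here, were picked after their values were seen, as were the macrophage markers Itgax, Ear1, Fabp1, Siglecf and Marco below. Adipoq, the fat hormone adiponectin, had 0.199 and 1.06 CPM in Sugen-Hypoxic libraries and 1.49 and 0.767 CPM in Normoxic libraries. Cfd, the adipocyte protease adipsin, had 1.62 and 7.9 CPM in Sugen-Hypoxic libraries and 7.86 and 2.69 CPM in Normoxic libraries. The whole list of 13 adipocyte markers summed to 62.3 and 70.3 CPM in Sugen-Hypoxic libraries and 72.4 and 65.9 CPM in Normoxic libraries, most of it the amino acid transporter Slc36a2 (47.9 and 47.9 CPM in Sugen-Hypoxic, 40.8 and 45.0 CPM in Normoxic libraries). Lep, Ucp1 and Aqp7 were at 0 in at least 1 library. Of 11 tested markers 0 were called higher and 1 (Adrb3) lower, against 5.51 and 6.01% of all genes. The part of adipocyte RNA in the Plin1 and Fabp4 values was not tested.

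Of 11 tested alveolar macrophage markers, 9 were highest in Sugen-Hypoxic replicate 2, the library with the highest Lpl, Lipe, Fabp4 and Plin2. The other 2, Ear1 and Fabp1, were lowest there, with Ear1 at 20.7 and 14.7 CPM in Sugen-Hypoxic and 20.7 and 19.5 CPM in Normoxic libraries, and Fabp1 at 7.83 and 2.59 CPM in Sugen-Hypoxic and 4.86 and 5.17 CPM in Normoxic libraries. Among the 9, the lead was small for Siglecf (20.7 CPM in Sugen-Hypoxic replicate 2, 20.3 CPM in Normoxic replicate 1) and Marco (30.4 and 28.1 CPM). Of the members, Plin1, Plin4, Plin5, Cidec, Pnpla2 and Cd36 were not highest in Sugen-Hypoxic replicate 2, and Plin5 and Pnpla2 were lowest there. The share of all genes that were highest in Sugen-Hypoxic replicate 2 was not counted. The 12 markers summed to 2117 and 5236 CPM in Sugen-Hypoxic libraries and 1149 and 1028 CPM in Normoxic libraries. The chitinase-like protein Chil3 made up most of the sum, at 1598 and 4400.3 CPM in Sugen-Hypoxic libraries and 671 and 584 CPM in Normoxic libraries, and rose (2.26 ± 0.46, SE, adjusted p = 0.036). It was the 1 called marker of 11 tested, against 5.51% of all genes called higher. The mannose receptor Mrc1 had 139 and 229 CPM in Sugen-Hypoxic and 117 and 105 CPM in Normoxic libraries (adjusted p = 0.0972), and the integrin Itgax had 91.8 and 197 CPM in Sugen-Hypoxic and 86.8 and 85.7 CPM in Normoxic libraries (adjusted p = 0.201). Ear10 was at 0 in at least 1 library. The part of macrophage RNA in the member values was not tested.

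Endothelial markers, set beside Cd36, went both ways: of 12 tested, 3 rose and 4 fell, against 5.51 and 6.01% of all genes. Emcn (1.04 ± 0.09, SE, adjusted p = 0.00526), Tie1 (0.59 ± 0.13, SE, adjusted p = 0.0444) and Cdh5 (0.59 ± 0.10, SE, adjusted p = 0.0249) rose. Ednrb (-1.79 ± 0.12, SE, adjusted p = 0.00406), Plvap (-1.30 ± 0.09, SE, adjusted p = 0.0044), Ramp2 (-0.72 ± 0.14, SE, adjusted p = 0.0322) and Aplnr (-0.51 ± 0.08, SE, adjusted p = 0.0211) fell. The junction protein Pecam1 had 1118 and 943 CPM in Sugen-Hypoxic libraries and 806 and 826 CPM in Normoxic libraries (adjusted p = 0.0937). Their sum was 5885 and 4932 CPM in Sugen-Hypoxic and 4890.4 and 4816 CPM in Normoxic libraries, most of it from a few abundant genes such as Cdh5 and Pecam1, and none of the 12 was at 0. The part of endothelial RNA in the Cd36 value was not tested. In the lists of other cells that hold lipid, the type 2 cell gene Etv5 fell (-0.33 ± 0.07, SE, adjusted p = 0.0396). The lung fibroblast gene Inmt fell as well (1114 and 679 CPM in Sugen-Hypoxic, 1875 and 1868 CPM in Normoxic libraries, adjusted p = 0.041). Each was the 1 called of 8 tested, against 6.01% of all genes called lower. The type 2 cell list summed to 23622 and 22770 CPM in Sugen-Hypoxic libraries and 24299 and 23273 CPM in Normoxic libraries, with the surfactant gene Sftpb at 3888 and 3839 CPM in Sugen-Hypoxic and 4484 and 4526 CPM in Normoxic libraries. The fibroblast list summed to 6053 and 4849 CPM in Sugen-Hypoxic libraries and 6185 and 6099 CPM in Normoxic libraries, and its most abundant gene Macf1 had 1573 and 1405 CPM in Sugen-Hypoxic and 1609 and 1556 CPM in Normoxic libraries. The 7 skeletal muscle markers summed to 9.46 and 12.8 CPM in Sugen-Hypoxic libraries and 12.9 and 15.8 CPM in Normoxic libraries, with 0 of 4 tested called; Ckm had 5.43 and 9.32 CPM in Sugen-Hypoxic and 8.92 and 10.7 CPM in Normoxic libraries, and Tnnt3 1.88 and 1.83 CPM in Sugen-Hypoxic and 1.54 and 1.95 CPM in Normoxic libraries. Beside Adrb3, 11 markers were called over all these lists. Of these 11, 1 stayed past the threshold without Normoxic replicate 1, 2 without Normoxic replicate 2 and 0 with the male fraction as a covariate, and all 11 kept their sign.

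**Figure D5:**
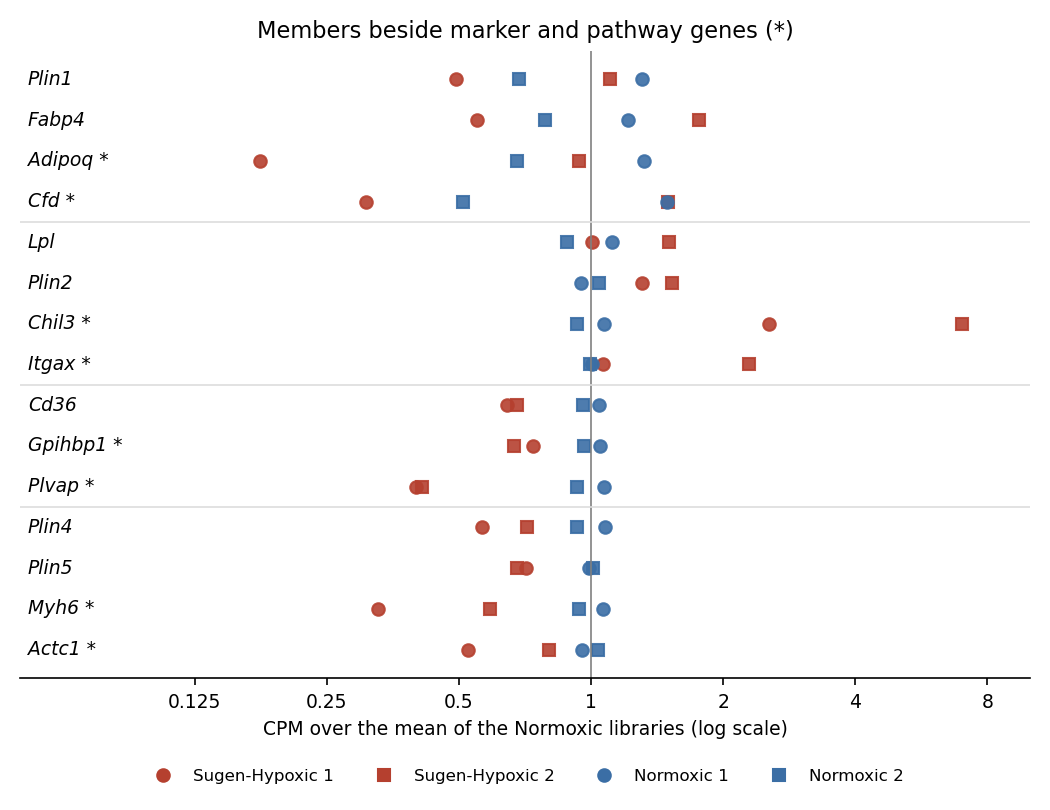
CPM of each library over the mean of the Normoxic libraries (horizontal axis, log scale) for members and, marked with an asterisk, Gpihbp1 and adipocyte, macrophage, endothelial and cardiac marker genes; Sugen-Hypoxic in red, Normoxic in blue, circles for replicate 1 and squares for replicate 2. The Sugen-Hypoxic circle lies left of the square for every gene shown except Gpihbp1 and Plin5. The marker genes were picked from longer lists, so this is not a result about the lists. Over the tested markers that order held in 7 of 11 adipocyte, 9 of 11 macrophage, 10 of 10 cardiac and 1 of 12 endothelial genes. Plvap is the only endothelial marker shown, and of the 12 tested 3 were called higher and 4 lower. Cd36, Gpihbp1, Plvap, Plin4, Plin5, Myh6 and Actc1 have both red points left of the blue.

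For the 3 members with the widest spread, the genes most like them over the 4 libraries were found by the Euclidean distance of centred log2 CPM among 14853 genes. For Plin1 they were 5830432E09Rik (0.275), Olfr56 (0.306), Myom2 (0.321), Muc4 (0.329) and Mcoln2 (0.342). For Lpl they were Pira2 (0.0533), Gm6394 (0.0724), Mxd3 (0.105), Ammecr1 (0.116) and Gm26902 (0.119). For Fabp4 they were Gjb5 (0.167), Tgtp2 (0.266), Hsd11b2 (0.272), Tgtp1 (0.291) and Mcoln2 (0.304), so Mcoln2 was listed for both Plin1 and Fabp4. With 4 libraries such likeness is a description of these pools. Among the coding genes that lie next to a member, 2 passed the threshold: Sema3c beside Cd36, given above, and Cracr2b, which lies 350 bases from Pnpla2 on the same strand and fell (-0.37 ± 0.08, SE, adjusted p = 0.0355).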

How the data were processed

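Lung RNA of 4 pooled libraries was analysed. The deposited files hold whole-number counts of reads per gene, 1 file per library. Their columns count reads without regard to strand and then under each of the 2 strand settings. Per the submitters' processing notes the tools were STAR 2.5.1b and HTSeq and the build GRCm38.p4. The annotation and the kit's strand setting are not given in these sources. The last column held 20.9 to 24.9 times the counts of the column before it and was used. Rows for unmapped, multimapping, ambiguous and unassigned reads (21.0 to 22.1% of reads) stayed out. Symbols and coordinates came from GENCODE M21 (47310 of 47729 identifiers matched) and promoters from RefSeq.

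Counts were filtered with filterByExpr, scaled by TMM and tested, two-sided, with edgeR 4.0.16 in R 4.3.3 (glmQLFit and glmQLFTest, 2 residual degrees of freedom). All 4 libraries entered the fit, group was its single term, and p-values were adjusted by Benjamini-Hochberg over 18783 genes. DESeq2 1.42.0, limma-voom (limma 3.58.1), other scalings and filters, the male fraction of each pool and leaving out each library served as alternatives. Multimapping reads were not counted, which lowers the values of genes with close copies. Poisson intervals cover counting error only. Besides the members, the text names the called genes of each list, regulators named by a rule, the 2 most abundant markers of each list except kidney, neighbouring genes and the 5 nearest in pattern; genes picked after their values were seen are marked as such. The members and lists were chosen with earlier results of these data known. The KCNK3 mutation named in the series' design was not analysed here.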

Additional observations from a re-analysis of the deposited data

How the results depend on the processing

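With 2 pools a group, single libraries decided many calls. Members called higher (1 with the settings of the report) numbered 0 with the male fraction as a covariate, 2 by groups that do not overlap and 0 to 4 with 1 library left out. Members called lower (1) numbered 2 with upper-quartile factors, no filter, unstranded counts or DESeq2, 3 with library size only, 0 with the male fraction, 4 by groups that do not overlap and 0 to 3 with 1 library left out. Of all genes, 1035 higher and 1128 lower calls became 1775 and 1882 without a filter, and 4 and 7 with the male fraction, which leaves 1 residual degree of freedom. DESeq2 called 1651 higher. With 1 library left out, 17 to 2663 genes were called higher and 8 to 2454 lower; the lone library of a group is then assumed to vary like the other group. The cause of these shifts was not tested. Library size only called 765 higher of 2349 calls (32.6%) and upper-quartile factors 799 of 2223 (35.9%), against 1035 of 2163 (47.9%), while the median over all genes moved to -0.073 and -0.055.

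Of 130 member values under alternatives (13 for each member), 106 kept direction and call, 12 gained a call in the same direction, 6 lost one and 6 reversed, 1 of which (Fabp4 without Sugen-Hypoxic replicate 2) also passed the threshold. The log2 fold change of Plin1 turned to 0.68 with the male fraction, 0.14 without Sugen-Hypoxic replicate 1 and 0.23 without Normoxic replicate 1, with a range of -1.02 to 0.23 over libraries left out. That of Cidec was -0.0044 without Sugen-Hypoxic replicate 1, and that of Fabp4 ranged from -0.87 (without Sugen-Hypoxic replicate 2) to 0.81 and was -0.08 without Normoxic replicate 2. The alternatives of non-overlapping groups and of coding transcript length were chosen after seeing the data. No paired analysis was possible because replicate numbers were given in accession order and do not link a treated pool to an untreated one. Depth limits Plin1, with 41 to 134 reads a library.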

Other observations

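The Lpl cofactor Apoc2 was listed at 0 in all 4 libraries; it overlaps the annotated gene Gm44805 on the same strand.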
